A study of Mus musculus with 14 samples.

Results

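The 32 genes described here are the mouse fibroblast growth factor (FGF) genes, their receptors, and the genes of the extracellular signal-regulated kinase (ERK) pathway that are usually read as its targets. The rule that defines them uses gene symbols and no measured value: 17 FGF genes, 4 receptors (Fgfr1 to Fgfr4), 8 feedback inhibitors (Spry1 to Spry4, Spred1 to Spred3 and Dusp6) and 3 transcription factors (Etv4, Etv5 and Egr1). They are among 16181 protein-coding genes listed in the deposited table of CPM (read counts scaled by the reads on the listed genes of each library). Of the 32 members, 23 reached 10 CPM in at least 1 library, 6 peaked between 1 and 10 CPM, and 3 (Fgf7, Fgf9 and Fgf23) stayed under 1 CPM in every library. A further 5 genes of these names (Fgf6, Fgf16, Fgf20, Fgf21 and Fgf22) appear in the count table alone.

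FGFs are secreted proteins that bind receptor tyrosine kinases together with heparan sulfate. The bound receptor recruits Frs2, Grb2 and Sos, which activate Ras, Raf, MEK and then ERK, and ERK induces transcription factors such as Egr1 and Etv5 as well as its own inhibitors: Sprouty (Spry) and Spred proteins act on the way from receptor to Raf, and Dusp6 removes the activating phosphates from ERK. In mouse embryonic stem cells (ESCs), autocrine Fgf4 drives this pathway and prepares the cells to leave the naive state. The 2i medium, an inhibitor of MEK and an inhibitor of the kinase GSK3, holds them there. Fgf5 is a classic marker of the formative epiblast that follows, Fgf8 belongs to the primitive streak, and Fgf15 is known from neural tissue and, as a hormone, from the gut.

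The series measured polyA RNA of embryoid bodies (EBs) from 2 ESC lines, a shLacZ control line and a line with a stable short hairpin against Dis3l2, shDis3l2. Dis3l2 is an exonuclease that degrades uridylated RNA. In both lines, d0 is undifferentiated ESCs grown in LIF and 2i, and d2, d4, d6, d8, d10 and d12 are EBs formed as hanging drops in medium with serum and without LIF and 2i, then held in suspension. There was 1 library per line and day, 14 in all, so no single value has a replicate, and whether each line is 1 clone is not stated in the sources used here. The study describes its stable knockdown in mESCs that carry an Osr1-GFP reporter. Between d0 and d2 the cells lost LIF, the MEK inhibitor and the GSK3 inhibitor, met serum and aggregated, and these changes cannot be told apart.

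The libraries held 7178712 to 39888099 reads on genes, and 3 reads, the floor used here, correspond to 0.096 CPM in the deepest and 0.474 CPM in the shallowest. The targeted gene, Dis3l2, stood in the shDis3l2 line at 14.2%, 28.5%, 32.2% and 55% of the shLacZ level at d0, d2, d4 and d6, and at 96.9% (95% interval 83.5 to 112), 95% (78.8 to 115) and 75.4% (60.8 to 93.3) at d8, d10 and d12. A knockdown was not detectable at this depth at d8 and d10. The d0 libraries stand apart in scale: across all genes with at least 1 CPM on either day, the median log2 difference of d2 over d0 was 0.36 in shLacZ and 0.59 in shDis3l2 on the deposited scale and -0.04 and 0.03 after TMM scaling (trimmed mean of M values). All d0 to d2 changes below are to be read against those shifts. The pluripotent list (6 genes fixed with the design, including Pou5f1 and Nanog) summed to 3250 and 2160 CPM at d0 (shLacZ first). At d2 it summed to 1400 and 1430 CPM, although in shDis3l2 Pou5f1 (955 to 1110 CPM) and Sox2 (116 to 149 CPM) rose. The primitive streak list (T, Mixl1, Eomes and Mesp1) summed to 14.6 and 14.9 CPM at d0 and to 1090 and 2000 CPM at d4.

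The 250 bases before the transcription start of 4 members are shown, 3 that went up together on leaving 2i (Dusp6, Spry2 and Fgf5) and Fgf4, which was lower at d2 than at d0 in both lines. They are RefSeq entries of the build GRCm38.p6, written 5′ to 3′ on the strand of the gene, and capitals mark matches to CCGGAA, the core of many sites for ETS factors such as Etv4 and Etv5, on either strand.
Dusp6 (chr10:99262981-99263230, + strand): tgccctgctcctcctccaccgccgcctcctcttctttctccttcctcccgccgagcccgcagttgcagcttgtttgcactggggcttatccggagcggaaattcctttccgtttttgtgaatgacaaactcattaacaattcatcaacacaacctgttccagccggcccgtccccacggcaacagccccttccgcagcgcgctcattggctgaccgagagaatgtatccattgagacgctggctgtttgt
Spry2 (chr14:105896820-105897069, - strand): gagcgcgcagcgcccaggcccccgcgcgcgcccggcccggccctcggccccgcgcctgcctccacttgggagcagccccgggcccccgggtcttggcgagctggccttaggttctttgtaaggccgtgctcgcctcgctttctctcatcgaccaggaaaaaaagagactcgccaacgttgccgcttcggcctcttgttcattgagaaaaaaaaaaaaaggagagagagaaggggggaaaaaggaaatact
Fgf5 (chr5:98253934-98254183, + strand): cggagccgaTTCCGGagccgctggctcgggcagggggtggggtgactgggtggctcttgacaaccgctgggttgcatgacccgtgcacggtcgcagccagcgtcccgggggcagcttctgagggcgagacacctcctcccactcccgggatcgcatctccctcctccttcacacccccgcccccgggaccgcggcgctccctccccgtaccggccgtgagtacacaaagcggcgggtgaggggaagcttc
Fgf4 (chr7:144861136-144861385, + strand): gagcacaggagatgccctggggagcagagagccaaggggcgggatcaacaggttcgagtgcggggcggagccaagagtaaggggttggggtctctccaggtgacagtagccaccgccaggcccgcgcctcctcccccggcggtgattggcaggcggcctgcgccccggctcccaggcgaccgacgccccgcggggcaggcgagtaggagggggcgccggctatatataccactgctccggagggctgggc
Fgf5 alone of the 4 holds the motif, as TTCCGG beginning 241 bases before the start. Among the 31 promoter entries found for 23 of the 32 members, 3 held CCGGAA (of Fgf5, Fgf12 and Fgfr4), against 12% of 32851 promoters of the same length. The AP-1 motif TGANTCA, searched on both strands and sharing no bases with CCGGAA in these promoters, occurred in 2 (of Fgf12 and Fgf13), against 6.75% of all. Fgf3, Fgf4 and Fgf15 lie side by side on chromosome 7, within 62.9 kb and on the same strand, and their profiles over time differed, as given below.

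The first comparison asks what happened to these genes when the ESCs left LIF and 2i. All 8 feedback inhibitors rose from d0 to d2, the receptors Fgfr1, Fgfr2 and Fgfr3 rose, and Fgf5 and Fgf15 went from under 1 CPM to among the highest FGF genes. Egr1 and the ligands Fgf3, Fgf10 and Fgf17 fell, while Etv4, Etv5, Fgf4 and Fgfr4 did not pass the test, of which Etv4 and Fgf4 were called lower with only 3 days in the fit. A fitted test across all 14 libraries (edgeR, with the 2 lines standing in for replicates of a day and p-values adjusted over all genes) called 17 members higher and 5 lower of 30 tested. Of all 20050 genes tested, 34.5% were called higher and 31% lower, and the members' median log2 difference was 1.61 against 0.12 for all genes. Taken line by line, 14 members were at least 3-fold higher and 4 at least 3-fold lower in shLacZ, of 25 with at least 1 CPM on either day, against 24.5% and 12.4% of all genes compared. In shDis3l2 the counts were 15 and 4 of 24, against 30.1% and 12.2%. With TMM scaling they became 12 and 4 in shLacZ and 12 and 6 in shDis3l2, where Fgf4 and Fgf11 joined the lower group. Spred1 then fell short of 3-fold in both lines (2.74 and 2.69), as did Fgf8 in shLacZ (2.88) and Spry2 and Fgfr1 in shDis3l2 (2.55 and 2.87). Fewer cells of a type and less RNA per cell cannot be told apart in bulk RNA of this kind.

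Dusp6, the ERK phosphatase (ENSMUSG00000019960, chr10:99263231-99267489 on the + strand, build GRCm38), stood at 9.29 and 10.7 CPM at d0 in shLacZ and shDis3l2 and at 189 and 149 CPM at d2. Both EB libraries lie far above both ESC libraries. The fold was 20.4 (95% counting interval 18.1 to 23) in shLacZ and 14 (12.2 to 16.2) in shDis3l2, and in the test the log2 difference was 3.61 ± 0.32 (SE), adjusted p = 7.12e-06. Intervals of this kind cover counting error only, since reads copied by PCR are not independent molecules. Dusp6 went on to 248 and 302 CPM at d4, its highest level in both lines, dropped to 55.1 and 34.2 CPM at d6, and then stood at 59.1, 81.2 and 56 CPM in shLacZ and 39, 46.7 and 46.7 CPM in shDis3l2 at d8, d10 and d12. Its fall from d4 to d6 passed the test (log2 difference -2.62 ± 0.30, adjusted p = 0.00146).

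Among the Sprouty genes, Spry4 stood at 4.87 and 5.58 CPM at d0 and at 74.1 and 69.5 CPM at d2 in shLacZ and shDis3l2, which is 15.2-fold (12.9 to 18.1) and 12.5-fold (10.3 to 15.3). At d4 it was at 57.4 and 79.7 CPM, at d6 at 26.2 and 13.1 CPM. Spry2 was higher at the start, at 16.6 and 18.4 CPM, and reached 86.6 and 67.2 CPM at d2 and 100 and 125 CPM at d4, then stood at 33.9, 38.4, 46.1 and 44 CPM in shLacZ and 32.6, 21.9, 18.9 and 27.9 CPM in shDis3l2 from d6 to d12. Spry2 was highest at d4 in both lines, while Spry4 peaked at d2 in shLacZ and at d4 in shDis3l2. Spry1 went from 4.23 to 18.8 CPM in shLacZ and from 1.37 to 15.7 CPM in shDis3l2, and unlike Spry2 and Spry4 it stayed near that level, at 21.9, 21.7, 26.9, 25.3 and 19.1 CPM in shLacZ and 15.7, 19.1, 20.3, 16.5 and 20 CPM in shDis3l2 from d4 to d12. Spry3 had 0 reads at d0 in both lines, then 54 reads (2.37 CPM) and 27 reads (1.49 CPM) at d2, at least 24.5-fold and 9.78-fold higher against a floor of 3 reads per library. From d4 to d10 it stood at 2.09, 3.42, 5.33 and 6.24 CPM in shLacZ and 2.38, 0.984, 2.69 and 4.4 CPM in shDis3l2. Spry3 alone among the inhibitors was at its highest in both lines at d12, at 11.8 and 8.72 CPM. In the files it lies on the unplaced scaffold GL456233.1.

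The Spred proteins hold back Raf activation. Spred1 stood at 20.9 and 17.6 CPM at d0, 73.4 and 68 CPM at d2, 128 and 157 CPM at d4 and 106 and 119 CPM at d6 in shLacZ and shDis3l2, with 59 to 69.8 CPM in the 6 libraries of d8 to d12. Its rise was called both from d0 to d2 (adjusted p = 2.26e-05) and from d2 to d4 (adjusted p = 0.00217). Spred3 went from 3.34 to 26.6 CPM and from 3.58 to 26.8 CPM, from d0 to d2, and stood at 26.4, 16.7, 13.3, 18 and 14.8 CPM in shLacZ and 30.9, 19.5, 15.5, 21.3 and 24.5 CPM in shDis3l2 from d4 to d12. It had the lowest adjusted p of the members at this step (5.65e-06, log2 difference 2.52 ± 0.21). Spred2 went from 23.2 to 63.2 CPM in shLacZ and from 9.7 to 62.3 CPM in shDis3l2, below the 3-fold criterion in the former (2.72-fold) and above it in the latter (6.43-fold). Over all 8 inhibitors, the median log2 difference was 2.40 from d0 to d2, 0.48 from d2 to d4, with 1 called higher (Spred1), and -0.86 from d4 to d6, with 4 called lower (Dusp6, Spred2, Spry2 and Spry4). For all genes the medians were 0.12, -0.05 and -0.00. Of all genes, 9.25% were called higher from d2 to d4, near the 1 of 8 here, and 6.24% lower from d4 to d6.

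**Figure D1:**
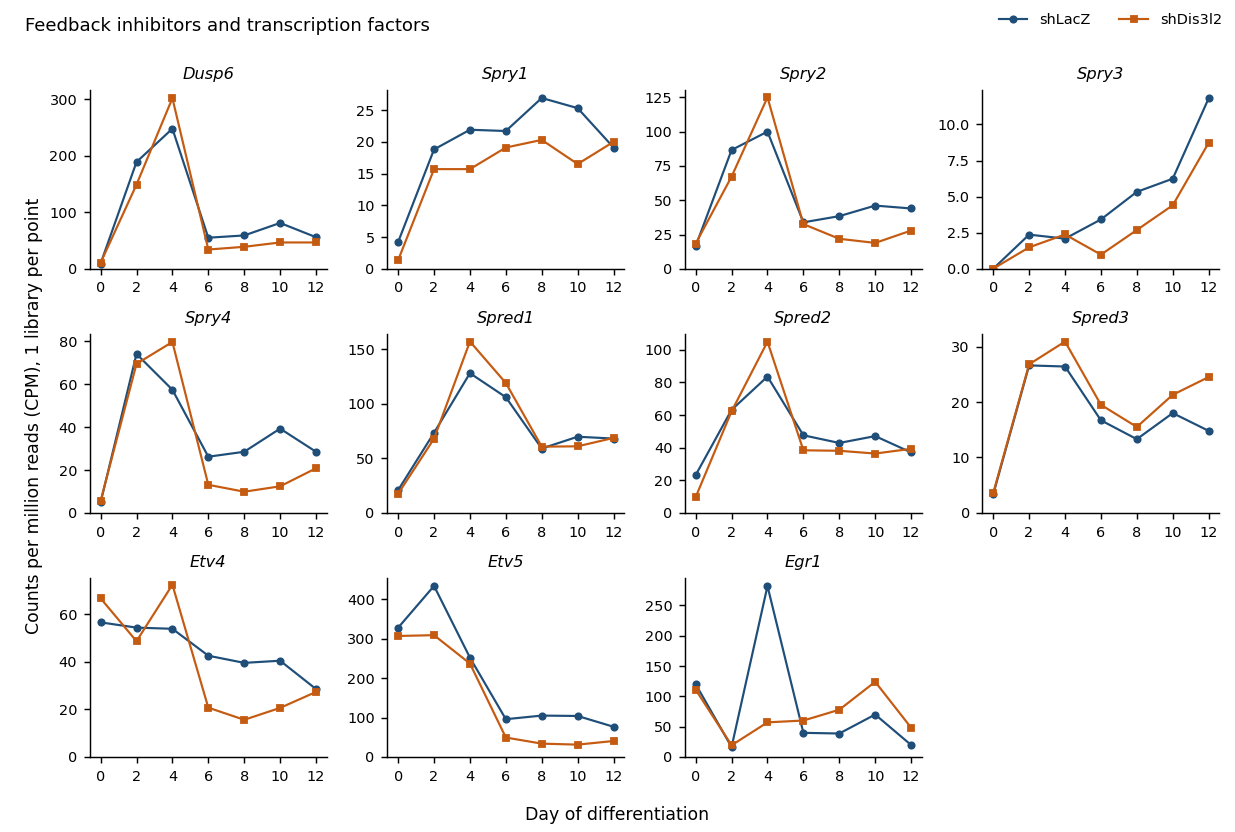
CPM (linear axes from 0) of the 8 feedback inhibitors and 3 transcription factors against the day of differentiation, 1 library per point, shLacZ as blue circles and shDis3l2 as orange squares. Dusp6, Spry2, Spry4 and the Spred genes are low at d0 and highest at d2 or d4, Etv5 declines from 328 and 307 CPM at d0 to 76.6 and 40.5 CPM at d12, and Egr1 dips at d2 in both lines before a point of 282 CPM in shLacZ at d4.

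The 3 transcription factors did not follow the inhibitors. Egr1, an immediate-early gene of the serum and ERK response (ENSMUSG00000038418, on chromosome 18), stood at 120 and 111 CPM at d0 and at 16.4 and 19.3 CPM at d2 in shLacZ and shDis3l2, 7.34-fold and 5.74-fold lower (log2 difference -3.14 ± 0.67, adjusted p = 0.00206). At d4 it was at 282 and 57.1 CPM. The rise from d2 to d4 was called (adjusted p = 0.00952), although the 2 libraries of d4 are 4.95-fold apart. Etv5, an ETS factor of the PEA3 group, stood at 328 and 307 CPM at d0, 434 and 309 CPM at d2 and 252 and 237 CPM at d4, then at 95.8 and 49.3 CPM at d6. Its d0 to d2 step was not called (log2 difference -0.29 ± 0.41, adjusted p = 0.552), and that value changed sign with the scaling, to 0.34 with library totals. The later fall from d4 to d6 was called (adjusted p = 0.0216). Etv4, of the same group, stood between 48.6 and 72.3 CPM in all 6 libraries of d0 to d4, and none of the 3 steps tested up to d6 passed the test with all days. With only 3 days in the fit it was called lower from d0 to d2 (log2 difference -0.68, adjusted p = 0.0106), and from d4 to d6 it went from 72.3 to 20.7 CPM in shDis3l2 (3.5-fold lower) and from 53.8 to 42.5 CPM in shLacZ.

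Of 12 other ERK-responsive genes fixed as a list, all tested, 5 rose from d0 to d2 (Dusp4, Etv1, Fosl1, Myc and Il17rd) and 3 fell (Fos, Junb and Ier3). Their median log2 difference was 0.94, and these counts lie near the 34.5% and 31% of all genes called. Dusp4, a nuclear relative of Dusp6, stood at 1.7 and 0.765 CPM at d0 and 134 and 91.1 CPM at d2 (adjusted p = 2.38e-06), and Il17rd, the FGF inhibitor Sef, at 19.3 and 21.5 CPM and then 133 and 99.9 CPM (adjusted p = 0.000167). Fos, an immediate-early gene like Egr1, was at 9.9 and 8.7 CPM at d0, 3.24 and 3.34 CPM at d2 (adjusted p = 0.000401) and 30.2 and 16.1 CPM at d4 (adjusted p = 0.000733). From d2 to d4, 6 of the 12 rose (Dusp5, Egr2, Egr3, Fos, Il17rd and Junb), against 9.25% of all genes. From d4 to d6, 1 rose (Phlda1) and 3 fell (Dusp4, Etv1 and Il17rd), against 7.54% and 6.24%. Of 22 genes of the cascade, from the adaptor Frs2 downward, 10 rose and 6 fell from d0 to d2, also near the share of all genes. The d2 to d4 and d4 to d6 steps called 3 (2 higher, 1 lower) and 2 (both higher) of these 22, to be read against the shares just given for the 12 genes and 8.23% of all genes lower from d2 to d4.

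The secreted ligands replaced one another. Fgf4 (ENSMUSG00000050917, chr7:144847367-144865243, + strand) stood at 293 and 334 CPM at d0 in shLacZ and shDis3l2, 160 and 157 CPM at d2, and 17.3 and 15.9 CPM at d4. Its d0 to d2 difference did not pass the test (log2 difference -1.49 ± 0.70, adjusted p = 0.0831), but was called without the filter on low counts (-1.55, adjusted p = 0.0178) and with only 3 days in the fit (-1.42 ± 0.17, adjusted p = 7.16e-05). Its fall from d2 to d4, 9.3-fold and 9.88-fold, did (adjusted p = 0.0167). Fgf5, of the same subfamily (chr5:98254184-98277030, + strand), had 7 and 2 reads at d0 and 2924 and 1889 reads at d2, which are 128 and 103 CPM. The fold was 569 (276 to 1420) in shLacZ and 1030 (284 to 8490) in shDis3l2, with wide intervals because of the few reads at d0. Fgf5 held 99.6 and 122 CPM at d4 and then dropped to 8.35 and 1.09 CPM at d6 (log2 difference -5.29 ± 1.12, adjusted p = 0.0142).

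Fgf15 was the other early ligand, with 25 and 5 reads at d0 and 63.8 and 51 CPM at d2, 79.7-fold (53.8 to 124) and 203-fold (86.8 to 628) higher. It had 2 crests in both lines: 12.7 and 21.5 CPM at d4, 44.9 and 53.1 CPM at d6, and 12.1 and 3.27 CPM at d8. Neither of the steps from d2 to d4 and d4 to d6 passed the test for Fgf15 with all days (adjusted p = 0.108 and 0.141). With only 3 days in the fit both were called (log2 difference -1.67, adjusted p = 0.00839, and 1.59, adjusted p = 0.0158). Without the filter on low counts, edgeR called the first (adjusted p = 0.0394) and not the second (adjusted p = 0.0652). Part of its exons, 24.9% of their length, overlaps an antisense gene that had at most 17 reads in any library.

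Another 4 ligands were low at d2 and came up at d4. Fgf8, a streak ligand (ENSMUSG00000025219, chr19:45736798-45742915, - strand), stood at 0.488 and 0.264 CPM at d0, 1.8 and 1.32 CPM at d2, 27.1 and 51.7 CPM at d4, and 3.93 and 0.239 CPM at d6. Its next highest library, shLacZ at d10, held 5.57 CPM. Fgf17, a close relative of Fgf8, differed at the start: it was at 24.5 and 15.6 CPM in ESCs, 1.28 and 1.27 CPM at d2 (19.4-fold and 12.4-fold lower, adjusted p = 0.000235), 6.52 and 8.01 CPM at d4 and 1.98 and 0.239 CPM at d6. Fgf3 stood at 10.6 and 6.14 CPM, then 2.15 and 1.49 CPM, then 11.3 and 41.7 CPM and 34.6 and 39.6 CPM at d6. Fgf10, known for limb and lung buds, stood at 7.4 and 5.13 CPM, 1.84 and 1.49 CPM, 52.8 and 58.7 CPM and 44.7 and 38.5 CPM on those days. All 4 rose from d2 to d4 (adjusted p between 4.44e-05 for Fgf10 and 0.0203 for Fgf17), and at d6 Fgf3 and Fgf10 were still high while Fgf8 and Fgf17 fell (adjusted p = 0.0187 and 0.0232). Fgf3, Fgf4 and Fgf15, neighbours on the chromosome, had their highest levels on different days: Fgf4 at d0, Fgf15 at d2 in shLacZ and d6 in shDis3l2, and Fgf3 at d6 in shLacZ and d4 in shDis3l2.

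Ranks of genes used CPM per kb of summed exon length, and so depend on the annotated length. On this scale Fgf4 made up 80.9% and 88.6% of the sum over the 13 secreted ligands at d0 in shLacZ and shDis3l2. At d2 Fgf5 and Fgf4 were close, at 51 and 50.2 CPM per kb in shLacZ and 41.2 and 49.3 CPM per kb in shDis3l2. At d4 Fgf5 was first in both lines (39.8 and 48.8 CPM per kb) and Fgf8 second (20 and 38.3). At d6 Fgf3 and Fgf15 led, at 14.9 and 14.7 CPM per kb in shLacZ and 17 and 17.4 in shDis3l2, too close to order. The sum over ligands was 113, 128, 91.3, 50.4, 25.6, 40.2 and 35.4 CPM per kb in shLacZ from d0 to d12, and 119, 112, 136, 45.2, 6.2, 9.45 and 19.4 CPM per kb in shDis3l2. It was highest at d2 in shLacZ and at d4 in shDis3l2, and lowest at d8 in both.

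**Figure D2:**
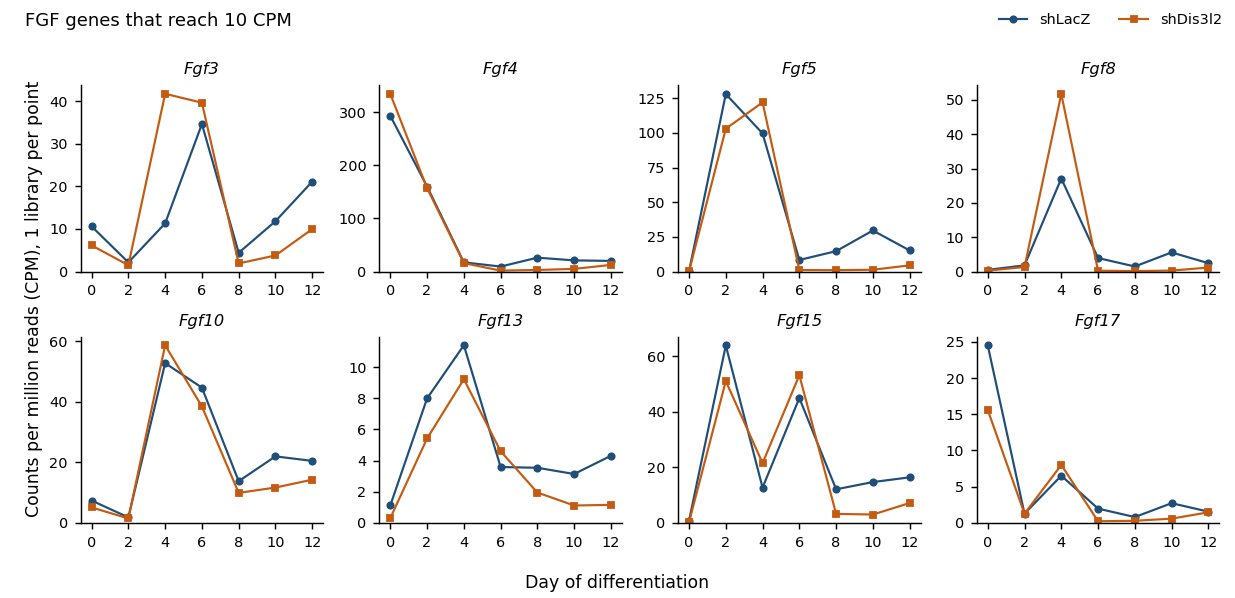
CPM (linear axes from 0) of the 8 FGF genes that reach 10 CPM against the day of differentiation, 1 library per point, shLacZ as blue circles and shDis3l2 as orange squares. Fgf4 is highest at d0, Fgf5 at d2 and d4, Fgf8 at d4, and Fgf3 and Fgf15 are both high at d6, while after d6 the shLacZ points of Fgf4, Fgf5 and Fgf8 lie above those of shDis3l2.

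Fgf13, which with Fgf11, Fgf12 and Fgf14 stays inside the cell and binds sodium channels rather than receptors, stood at 1.13 and 0.314 CPM at d0, 7.99 and 5.42 CPM at d2 and 11.4 and 9.22 CPM at d4. Its rise from d0 to d2 was called (adjusted p = 0.000888), and from d6 to d12 it stood at 3.59, 3.54, 3.14 and 4.31 CPM in shLacZ and 4.6, 1.95, 1.12 and 1.16 CPM in shDis3l2. Fgf11 fell at that step (log2 difference -1.50 ± 0.46, adjusted p = 0.0145), a call lost with library totals, where the value was -0.91. Fgf1 peaked at d2 with 6.81 and 5.42 CPM and fell at d4 (adjusted p = 0.0294), and Fgf2, Fgf12, Fgf14 and Fgf18 stayed at or under 3.85 CPM in every library. Fgf2 shares 9.44% of its exon bases with Nudt6 on the other strand.

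Of the receptors, Fgfr1 was the most abundant per kb in all 14 libraries. It stood at 64.8 and 34.8 CPM at d0, 184 and 143 CPM at d2 and 292 and 308 CPM at d4, and both steps passed the test (adjusted p = 0.000888 and 0.0303), the second not with library totals. Per kb it made up between 79.8% and 94.3% of the 4 receptors from d0 to d4. Fgfr2 (ENSMUSG00000030849, chr7:130162451-133123350, - strand) stood at 2.12 and 2.77 CPM at d0, 26.3 and 30.4 CPM at d2, 15.5 and 9.77 CPM at d4 and 47.7 and 110 CPM at d6, called higher at the first and the last of these steps (adjusted p = 0.000136 and 0.0053). Fgfr3 had 4 and 0 reads at d0 and stood at 7.47 and 2.38 CPM at d4 and 20.9 and 38.2 CPM at d6 (adjusted p = 0.00868 for d4 to d6).

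Fgfr4 was the late receptor. It stood between 1.82 and 3.59 CPM in the 6 libraries of d0 to d4, at 20.5 and 9.28 CPM at d6 (adjusted p = 0.00106), and at 44 and 32.5 CPM at d12, its highest level in each line. From d6 on, Fgfr1 still led in every library but with 33.5% to 58.8% of the receptor sum per kb. Second place per kb went to Fgfr4 in shLacZ on all 4 days and to Fgfr2 in shDis3l2 until d10. The order of these 2 rests on the summed exon length, 3542 bases for Fgfr4 and 10328 bases for Fgfr2. In CPM, shLacZ held Fgfr2 at 47.7, 45.8, 36.2 and 44.5 and Fgfr4 at 20.5, 34.5, 36.3 and 44 from d6 to d12. Counts per gene cannot separate the b and c splice forms of Fgfr1 to Fgfr3, which bind different ligands. The gene model of Fgfr2 shares 3.04% of its exon bases with Ctbp2, a gene on the same strand that had up to 6786 reads in a library. Among 16 tested genes for co-receptors and cofactors, the d4 to d6 step called 5 higher (Flrt2, Flrt3, Gpc3, Klb and Sdc3) and 0 lower, against 7.54% and 6.24% of all genes. Klb, the co-receptor that Fgfr4 uses for endocrine FGFs, went from 7.15 and 3.49 CPM to 48.3 and 9.6 CPM (adjusted p = 0.0106). The d0 to d2 step called 3 of the 16 higher and 1 lower, against 34.5% and 31% of all genes. The d2 to d4 step called 2 higher and 1 lower, against 9.25% and 8.23%.

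**Figure D3:**
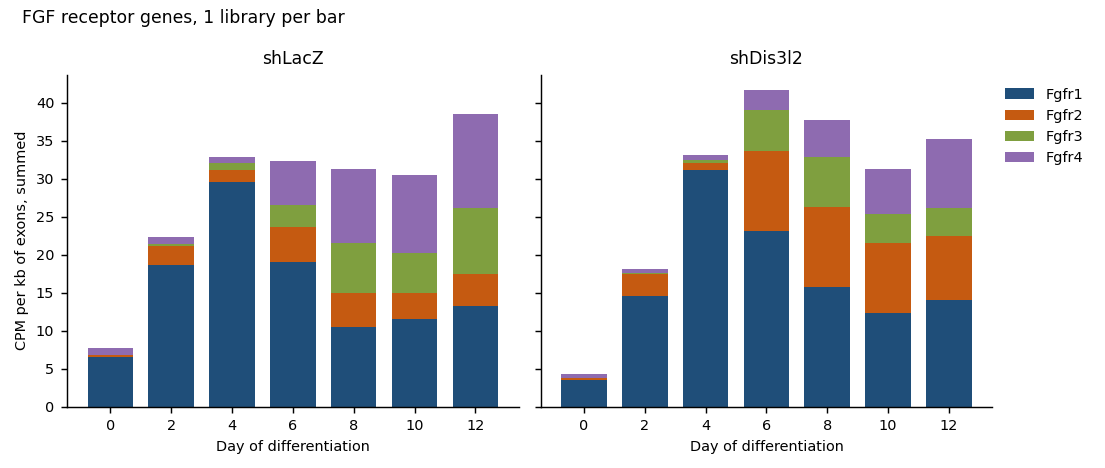
Stacked bars of CPM per kb of exons of Fgfr1 to Fgfr4 (linear axis from 0) against the day, 1 library per bar, shLacZ left and shDis3l2 right. Fgfr1 fills most of each bar from d0 to d4, and Fgfr2, Fgfr3 and Fgfr4 take up the larger part of the bars from d8 on.

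Over all members, the d2 to d4 step called 7 higher (Egr1, Fgf3, Fgf8, Fgf10, Fgf17, Fgfr1 and Spred1) and 2 lower (Fgf1 and Fgf4) of 30 tested, against 9.25% and 8.23% of all genes. From d4 to d6, 3 were called higher (Fgfr2, Fgfr3 and Fgfr4) and 8 lower (Dusp6, Etv5, Fgf5, Fgf8, Fgf17, Spred2, Spry2 and Spry4), against 7.54% and 6.24%. Over the same step the sum of the streak list went from 1090 and 2000 CPM to 99 and 20.9 CPM. That of the pluripotent list went from 1170 and 1280 CPM to 369 and 57.3 CPM. Within the pluripotent list, Klf4 rose in both lines, from 10 to 49.6 CPM in shLacZ and from 5.31 to 13.2 CPM in shDis3l2. In shLacZ, Esrrb (36.2 to 43 CPM) and Zfp42 (55.5 to 74.3 CPM) rose too. The sum of visceral endoderm genes (Afp, Ttr, Apoa1 and Amn) went from 66.1 and 18.4 CPM to 319 and 101 CPM, although Apoa1 fell in shDis3l2 (3.16 to 0.984 CPM). The sum of mesenchyme genes (Col1a1, Col3a1, Pdgfra, Twist1 and Prrx1) went from 141 and 192 CPM to 355 and 861 CPM. The part of these markers in the members' changes was not tested.

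**Figure D4:**
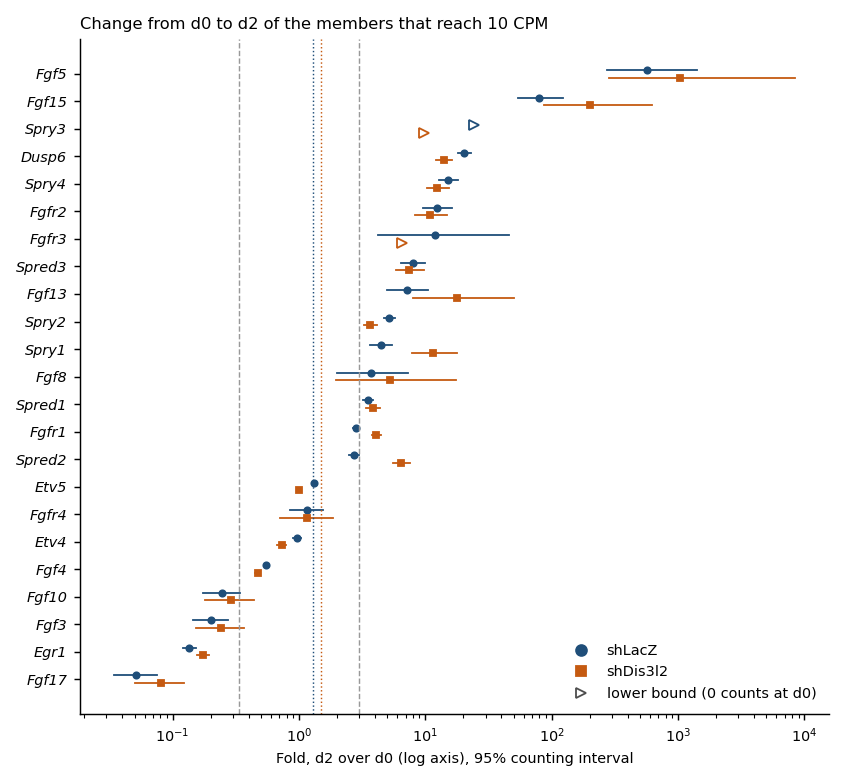
Fold of d2 over d0 (log axis) for the 23 members that reach 10 CPM, blue circles for shLacZ and orange squares for shDis3l2, with bars for the 95% counting interval and open triangles for lower bounds where d0 had 0 reads. Dashed lines mark 3-fold, dotted lines the median of all genes compared in each line; Fgf5 and Fgf15 are farthest right, and Egr1, Fgf3, Fgf10 and Fgf17 lie left of the lower dashed line in both lines.

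The second comparison asks whether the shDis3l2 line differed from the shLacZ line. Up to d4 few members were 3-fold apart. At d0, 0 members were at least 3-fold higher in shDis3l2 and 2 at least 3-fold lower, of 19 compared, against 0.722% and 2.17% of all genes. These were Fgf13, with 35 and 6 reads, and Spry1, at 4.23 and 1.37 CPM (0.321-fold, 0.204 to 0.488). The median of all genes at d0 was itself at -0.26 on the log2 scale, and -0.06 with TMM, where Spry1 fell short of the criterion at 0.369-fold. At d2 the count was 0 in each direction of 25 compared, against 0.127% and 0.187% of all genes, and Fgf4 was at 160 and 157 CPM. At d4, 1 was higher (Fgf3, 11.3 and 41.7 CPM, 3.71-fold, 2.91 to 4.81) and 3 were lower (Egr1, Fgf1 and Fgfr3), of 27, against 0.364% and 1.83%. The Egr1 libraries of d4 held 1787 and 1036 reads, so the difference of 4.95-fold is far outside counting error, and Fos and Junb, at 30.2 against 16.1 CPM and 39.9 against 13.3 CPM, differed in the same direction on that day.

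From d6 the ligands and targets parted between the lines. At d6, 0 members were higher and 5 lower in shDis3l2 (Fgf4, Fgf5, Fgf8, Fgf17 and Spry3) of 24, against 2.78% and 4.47% of all genes. At d8 the counts were 0 and 5 (Etv5, Fgf4, Fgf5, Fgf8 and Fgf15) of 24, against 5.52% and 3.96%. At d10 they were 0 and 8 (Etv5, Fgf3, Fgf4, Fgf5, Fgf8, Fgf15, Fgf17 and Spry4) of 27, against 8.69% and 3.18%. At d12, 2 were higher (Fgf2 and Fgf11) and 3 lower (Fgf5, Fgf13 and Fgf14) of 27, against 8.11% and 1.56%. The largest count of lower members, 8, was that of d10. Dis3l2 stood at 95% of the shLacZ level on that day, and a relation of these counts to the Dis3l2 level was not tested.

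Fgf5 was lower on all 4 late days: it stood at 8.35, 14.7, 29.6 and 15.2 CPM in shLacZ and at 1.09, 0.984, 1.28 and 4.47 CPM in shDis3l2 at d6, d8, d10 and d12. The ranges do not overlap, though how many of all genes have such ranges was not computed. The fold at d10 was 0.0429 (0.0269 to 0.0656). Fgf4 stood at 9.37, 26.1, 21 and 20 CPM in shLacZ and at 1.73, 2.98, 4.98 and 12.5 CPM in shDis3l2. The gap in Fgf4 was widest at d8, 8.81-fold, and was 4.21-fold at d10. Fgf8 stood at 3.93, 1.48, 5.57 and 2.44 CPM in shLacZ and at 0.239, 0.128, 0.278 and 1.16 CPM in shDis3l2, where d6 and d8 rest on 2 reads each. The fold of Fgf8 was 0.0544 (0.0064 to 0.208) at d6 and 0.0478 (0.0147 to 0.121) at d10. Fgf15 and Fgf3 were 1.18-fold (1.04 to 1.34) and 1.14-fold (0.991 to 1.32) higher in shDis3l2 at d6 and lower on the later days. From d8 to d12, Fgf15 stood at 12.1, 14.7 and 16.4 CPM against 3.27, 3.03 and 7.16 CPM, and Fgf3 at 4.4, 11.8 and 21.1 CPM against 1.9, 3.77 and 9.96 CPM.

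**Figure D5:**
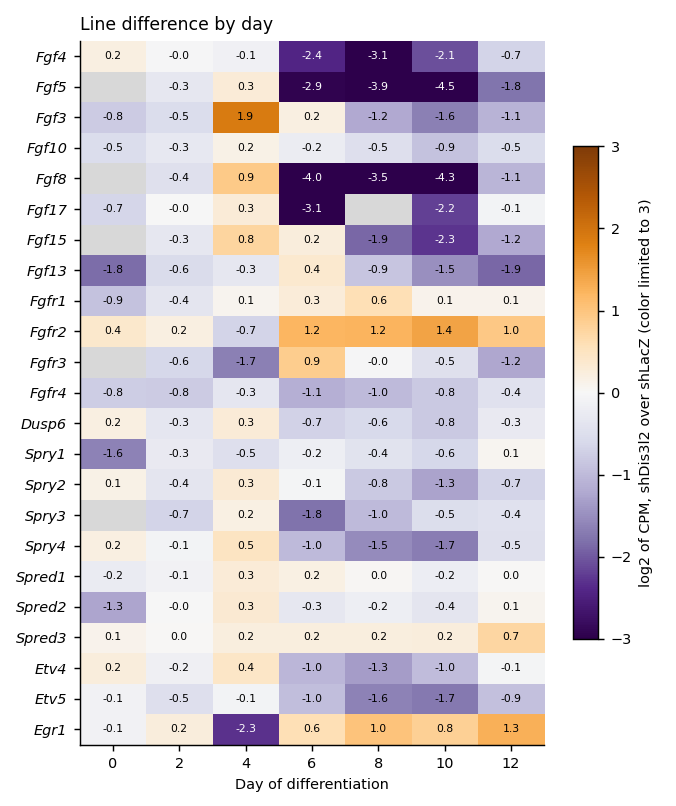
Log2 of the CPM of shDis3l2 over shLacZ for the 23 members that reach 10 CPM (rows) on each day (columns), 1 library per line and day, with the value printed in each cell, purple for lower and orange for higher in shDis3l2 and gray where both libraries were under 1 CPM. Fgf4, Fgf5 and Fgf8 are purple from d6 to d12, Fgfr2 and Egr1 are orange on those days, and the columns of d2 and d4 are pale apart from Fgf3, Fgfr3 and Egr1 at d4.

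An edgeR test of the line effect over the 8 libraries of d6 to d12, with the day as a block so that the days of 1 series stand in for replicates, called 2 members higher (Egr1 and Fgfr2) and 12 lower of 26 tested. Of all genes, 19.6% were called higher and 18.7% lower, and the members' median log2 difference was -0.65 against 0.02 for all genes. Fgf5 (log2 difference -3.29 ± 0.45, adjusted p = 0.00216), Fgf8 (-3.10 ± 0.58, adjusted p = 0.00658) and Fgf4 (-2.04 ± 0.38, adjusted p = 0.00657) differed most. Fgf17 was called at -1.57 ± 0.50 (adjusted p = 0.0432), with 1.98, 0.814, 2.73 and 1.56 CPM against 0.239, 0.299, 0.595 and 1.47 CPM. Fgf10 was called at -0.53 ± 0.13 (adjusted p = 0.02), with 44.7, 13.8, 22 and 20.5 CPM against 38.5, 9.94, 11.7 and 14.3 CPM. Fgf15 (-1.19 ± 0.40, adjusted p = 0.0529) and Fgf3 (-0.87 ± 0.30, adjusted p = 0.0568) were not called by edgeR, whereas DESeq2 called both (adjusted p = 0.00335 and 0.0144).

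Of the 12 lower calls, 6 were targets (Dusp6, Etv4, Etv5, Spry2, Spry3 and Spry4). Etv5 stood at 95.8, 105, 104 and 76.6 CPM in shLacZ and at 49.3, 33.8, 31.3 and 40.5 CPM in shDis3l2 (log2 difference -1.32 ± 0.15, adjusted p = 0.00129). Spry4 stood at 26.2, 28.5, 39.3 and 28.5 CPM against 13.1, 9.88, 12.4 and 20.8 CPM (-1.18 ± 0.20, adjusted p = 0.00485). Dusp6 differed by -0.60 ± 0.10 (adjusted p = 0.00415), with 55.1 to 81.2 CPM against 34.2 to 46.7 CPM. For each of these the ranges of the lines do not overlap, and the share of all genes with ranges apart was not computed. Etv4, Spry2 and Spry3 were called lower too, at -0.87, -0.71 and -0.84. The Spred genes and Spry1 were not called, and Spred1 was at -0.00 ± 0.08.

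Against this direction, Egr1 stood at 39.8, 38.7, 70 and 19.8 CPM in shLacZ and 60.1, 77.9, 124 and 48.3 CPM in shDis3l2, higher on all 4 days (log2 difference 0.91 ± 0.11, adjusted p = 0.00156). Its relatives Egr2 and Egr3 were called higher as well (1.36 and 1.61), while Dusp4, Il17rd and Junb, of the same list of 12, were called lower, and Fos was not called (adjusted p = 0.123). At d4, before this, Egr1 had been the lower in shDis3l2. Fgfr2 stood at 47.7, 45.8, 36.2 and 44.5 CPM in shLacZ and at 110, 108, 96.1 and 86.1 CPM in shDis3l2 (log2 difference 1.19 ± 0.09, adjusted p = 0.00047). Its lowest shDis3l2 library lies above its highest shLacZ library, again without a share over all genes to compare. Fgfr4 differed the other way, at 20.5, 34.5, 36.3 and 44 CPM against 9.28, 17.2, 20.8 and 32.5 CPM (-0.84 ± 0.13, adjusted p = 0.00332), and its co-receptor gene Klb likewise (-1.49 ± 0.21, adjusted p = 0.00236). Of the cofactor genes tested, 7 of 16 were called higher and 3 lower, and of the cascade genes 6 and 6 of 22, against the 19.6% and 18.7% of all genes.

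Of the 14 calls of this test, 9 held whichever of the 4 days was left out: Egr1 and Fgfr2 higher, and Dusp6, Etv5, Fgf4, Fgf5, Fgf8, Fgfr4 and Spry4 lower. The share of the calls over all genes that held in every such fit was not computed. Without d8, and likewise without d10, 7 were called lower, and the calls of Etv4, Fgf10, Fgf17, Spry2 and Spry3 were lost. Calls over all genes dropped in the same fits, from 19.6% higher and 18.7% lower with all 4 days. They were 10.7% and 10% without d8, and 10.1% and 9.8% without d10. With d6 and d12 alone, the late days on which Dis3l2 was still lower, the fit had 1 residual degree of freedom. There edgeR called 0 of all 15950 genes tested, and so 0 members. An unadjusted p under 0.05 was reached by 8 of the 25 members tested (2 higher, 6 lower) and by 3149 of all genes. DESeq2 called 3 members (Etv5 and Fgf5 lower, Fgfr2 higher), against 2.6% of all genes higher and 2.1% lower.

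Markers of several cell types moved with the line on these days. The pluripotent list summed to 369, 412, 546 and 536 CPM in shLacZ and to 57.3, 88.1, 198 and 368 CPM in shDis3l2 at d6, d8, d10 and d12, with all 6 of its genes lower in shDis3l2 at d6, d8 and d10. The streak list summed to between 28.5 and 108 CPM in shLacZ and between 4.39 and 20.9 CPM in shDis3l2, with Mesp1 at most 2.06 CPM in all 8 libraries, and visceral endoderm to between 319 and 2640 CPM and between 101 and 804 CPM. The mesenchyme list went the other way, between 355 and 1650 CPM in shLacZ and between 861 and 13400 CPM in shDis3l2. So did the cardiomyocyte list, at 7.31 to 20.2 CPM in shLacZ and 8.83 to 105 CPM in shDis3l2, and the blood list, at 3.48 to 520 CPM and 25.1 to 933 CPM. The sums of both were higher in shDis3l2 on each of the 4 days. Single genes of these lists were lower in shDis3l2 on some days. At d6 these were Pdgfra (230 CPM in shLacZ and 197 CPM in shDis3l2), Myl7 (0.701 and 0.452 CPM), Actn2 (2.23 and 0.984 CPM) and Hba-x (16.6 and 15.8 CPM). Hba-x was also lower at d10, Gata1 at d8 and Actn2 at d12. The endothelium and neural lists did not keep 1 direction over the 4 days. The part of these marker differences in the late line differences of Fgf4, Fgf5, Fgf8, Fgfr2, Fgfr4, Egr1 and the targets was not tested.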

How the data were processed

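PolyA RNA of ESCs and EBs of the shLacZ and shDis3l2 lines was sequenced. With Subread and the GRCm38 build, the authors mapped reads and deposited whole-read counts per gene from featureCounts, strand setting not stated, with the summed exon length of each gene. A deposited CPM value, made by the authors with edgeR, is the count with 0.25 added, scaled to reads on the 16181 listed genes (checked for every value). Columns named shm5 were taken as shDis3l2, the only other line of the labels; the study's supplement gives the same values under that name.

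Folds between single libraries are ratios of counts scaled by the reads on listed genes, with 95% Clopper-Pearson intervals of the split of reads. Members with at least 1 CPM in 1 of the 2 libraries were compared, and a change of at least 3-fold was counted. Against 0 reads, a floor of 3 reads per library was used. Tests used edgeR 4.0.16 (glmQLFit and glmQLFTest, TMM, filterByExpr, Benjamini-Hochberg over all genes, threshold 0.05), with DESeq2 as an alternative, and were tested on simulated data. The 2 lines or the 4 late days stand in for replicates, so p-values measure only the spread between these libraries. Every member may be named, and values are given in every library for the 18 members that reached 10 CPM and were 3-fold changed from d0 to d2 in both lines, or between the lines in 1 direction on at least 2 of the late days. The members, lists and tests were chosen with earlier results of these data known. Promoters are RefSeq entries of GRCm38.p6, which held 23 of the 32 members.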

Additional observations from a re-analysis of the deposited data

Results flagged for a closer look

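For 12 day steps of 9 members the lines moved in opposite directions. Each move exceeded its 95% counting interval and held under each scaling tried. The share of all genes with such steps was not computed, so the count cannot be read as a trait of these members. With 1 library per point, the differences were not tested beyond counting error. From d10 to d12, the shLacZ and shDis3l2 folds were 0.512 and 3.51 for Fgf5, 0.436 and 4.31 for Fgf8, 0.707 and 1.33 for Etv4, 0.739 and 1.29 for Etv5, 0.756 and 1.21 for Spry1 and 0.726 and 1.68 for Spry4, all down in shLacZ and up in shDis3l2. Over the same step Fgfr2 went the other way, at 1.23 and 0.896. Earlier steps of this kind were Fgf5 and Spry4 from d2 to d4 (0.781 and 1.18, 0.775 and 1.15), Etv5 from d6 to d8 (1.1 and 0.687), and Fgf4 and Fgfr1 from d8 to d10 (0.801 and 1.68, 1.09 and 0.777).

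Of the family genes that only the count table holds, Fgf20 reached 9 reads (shLacZ, d2), Fgf21 reached 10 (shLacZ, d0) and Fgf22 reached 9 (shLacZ, d0), above the floor of 3, while Fgf6 and Fgf16 stayed at or under it.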

How the results depend on the processing

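The counts of members called stayed within 1.5 times the reported value in 53 of 66 recomputations. Counts of 2 at d0 between the lines became 1 with library totals, 1 with TMM, 0 with DESeq2 size factors and 4 with no minimum CPM. Between the lines, the count of 5 at d6 became 8 with no minimum CPM and also 8 at 2-fold, that of 5 at d8 became 12 at 2-fold, and that of 5 at d12 became 10 at 2-fold. With only 3 days in the fit, the d2 to d4 count of 9 became 14. Leaving out 1 late day gave 9 to 16 calls between the lines against 14. The alternatives chosen after seeing the data, only d6 and d12, gave 0 with edgeR, which called 0 of all 15950 genes there, and 3 with DESeq2. Sign changes occurred for small values not called in the reported fit: Fgfr4 and Etv5 from d0 to d2 with library totals (0.37 and 0.34), from d2 to d4 Spry4 with library totals (0.02) and Fgf5 and Fgf11 with 3 days (-0.00 and 0.02), and between the lines Spred1 (0.01 with library totals, 0.01 without a filter, 0.08 and, by DESeq2, 0.06 with only d6 and d12, and -0.06 to 0.06 when 1 day was left out) and Fgfr3 (-0.57 to 0.12 when 1 day was left out). The cause of these changes was not tested. Of the recomputed edgeR tests of single members, 502 kept their direction and side of the threshold, 39 lost their call and 26 gained one with the direction kept; of the single-day folds, 65 moved past their counting interval and 421 did not, with 0 of the called folds reversed. Across all genes, 52.7% of the d0 to d2 calls were higher with TMM and 69.3% with library totals. The late test between the lines has the day as a block; there were no replicate numbers to pair.

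The d0 to d2 changes cannot be assigned to the MEK inhibitor, LIF, serum or aggregation, and the line differences rest on 1 series per line. Members under 10 reads at d0 (such as Fgf5, and Fgf15 in shDis3l2) have folds known only within wide counting intervals. The late line test treats days as replicates, and 5 of its 14 calls were lost when d8 or d10 was left out. Calls over all genes dropped in those fits too, from 19.6% higher and 18.7% lower to at most 10.7% and 10%.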
